A study of Mus musculus with 10 samples.

Results

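The genes of glycolysis and of the response to low oxygen were examined in the mouse lens, in wild type animals (WT) and in animals with a conditional null allele of the transcription factor gene Klf4 (labelled Klf4CN). The set was a list of 35 genes: 23 for glucose uptake, the glycolytic enzymes and lactate and pyruvate handling, and 12 for oxygen sensing and hypoxia-induced products. Each gene was read from its brightest probe set with a single gene symbol, by the mean over 10 arrays. Of the 35 genes, 33 had such a probe set, and these 33 also passed the filter on dim genes, among 13445 genes tested and 18194 named on the array. The expression of Gpi1 and Eno1 was not analysed here, and only their promoter windows were counted.

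Each array measured RNA from whole lenses. At embryonic day 16.5 (E16.5) there were 3 arrays of WT and 3 of Klf4CN lenses, each an independent preparation from 5 embryos. At postnatal day 56 (PN56) there were 2 arrays of each genotype, each an independent preparation from 3 young adults. The labels name no Cre driver, strain or sex. Because each array is a pool, p-values measure the spread between pooled preparations, and the number of arrays limits the precision of every comparison. In whole lenses, fewer cells of a type and less RNA per cell cannot be told apart.

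Glycolysis splits glucose into pyruvate, which lactate dehydrogenase turns into lactate for export from the cell. The adult lens has no blood vessels, lives at low oxygen and draws most of its ATP from glycolysis, since its mature fibre cells have lost their mitochondria. The embryonic lens is still wrapped in the hyaloid vessels. Cells sense oxygen through prolyl hydroxylases, encoded by the Egln genes, which mark the hypoxia-inducible factors (HIF) for breakdown when oxygen is present. When oxygen is scarce, HIF binds a short DNA core and raises genes for glucose uptake, glycolysis and vessel growth. KLF4 belongs to a family of zinc finger factors that bind GC-rich and CACCC boxes.

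Promoters of 5 members that passed a test are shown first, because HIF is known to act through a core, ACGTG or GCGTG, near the start of its target genes. The stretches are the 250 bases before an annotated transcript start, 5′ to 3′ on the gene's strand, from RefSeq sequence of build GRCm38.p6. Capitals mark the cores searched on both strands, so that CACGT and CACGC are cores on the opposite strand, and cores may overlap. Slc2a1 (chr4:119108495-119108744, plus strand) encodes the main glucose transporter. Hif1a (chr12:73907617-73907866, plus strand) encodes an oxygen-regulated HIF subunit, and its stretch lies inside the annotated gene, whose outermost start is further upstream. Egln3 (chr12:54203875-54204124, minus strand) encodes a prolyl hydroxylase. Vegfa (chr17:46032378-46032627, minus strand) encodes the vessel growth factor VEGF-A. Ankrd37 (chr8:45999851-46000100, minus strand) encodes an ankyrin repeat protein and is a known HIF target; its stretch also lies inside the annotated gene.
Slc2a1: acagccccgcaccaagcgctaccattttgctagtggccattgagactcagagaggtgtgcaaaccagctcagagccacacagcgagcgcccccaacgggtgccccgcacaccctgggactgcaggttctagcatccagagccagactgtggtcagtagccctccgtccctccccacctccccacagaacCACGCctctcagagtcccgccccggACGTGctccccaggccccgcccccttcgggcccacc
Hif1a: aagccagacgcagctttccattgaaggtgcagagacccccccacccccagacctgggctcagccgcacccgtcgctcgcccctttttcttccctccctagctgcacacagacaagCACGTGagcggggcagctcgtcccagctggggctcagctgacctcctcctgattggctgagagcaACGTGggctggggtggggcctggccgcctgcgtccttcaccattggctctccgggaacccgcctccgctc
Egln3: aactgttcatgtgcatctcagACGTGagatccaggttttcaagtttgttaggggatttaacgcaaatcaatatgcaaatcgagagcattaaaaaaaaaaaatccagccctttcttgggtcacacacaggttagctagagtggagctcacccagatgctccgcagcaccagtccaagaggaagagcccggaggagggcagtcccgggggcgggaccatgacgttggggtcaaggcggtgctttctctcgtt
Vegfa: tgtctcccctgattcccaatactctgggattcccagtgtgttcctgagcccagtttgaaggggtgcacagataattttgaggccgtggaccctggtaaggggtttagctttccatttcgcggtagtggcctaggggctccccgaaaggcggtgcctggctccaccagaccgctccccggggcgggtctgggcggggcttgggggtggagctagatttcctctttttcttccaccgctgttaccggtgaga
Ankrd37: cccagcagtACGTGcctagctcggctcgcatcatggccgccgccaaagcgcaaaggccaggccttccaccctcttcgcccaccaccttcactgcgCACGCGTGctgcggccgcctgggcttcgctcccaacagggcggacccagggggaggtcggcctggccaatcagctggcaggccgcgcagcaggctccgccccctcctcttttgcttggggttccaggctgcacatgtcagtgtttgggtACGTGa

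Slc2a1 held 2 cores, 61 and 36 bases before the start. Hif1a held 3, at 135, 134 and 70 bases before it, the first 2 of them overlapping as a palindrome. Egln3 held 1, at 229 bases before the start, and Ankrd37 held 4, at 241, 155, 152 and 6 bases before it. Vegfa held 0 in the stretch shown, and 2 in the window of another annotated start inside the gene. Windows running from 250 bases before to 50 after a start were matched by symbol for 32 of the 35 listed genes, 46 windows in all; Slc2a3, Epas1 and Ndrg1 had none here. A core of either kind, on either strand, was in 37 of these 46 windows (80.4%) and in 43.8% of all 32851 windows of that length. It was in 27 of 35 windows of the glycolysis genes and in 10 of 11 of the hypoxia response genes. The box CACCC, on either strand, was in 69.6% of the members' windows and in 57.5% of all windows. Some windows of the same gene overlap, as for Aldoa, Eno1 and Pfkm, so that a core can be counted more than once. The members' windows and all windows were not matched for base composition. These matches describe letters, not binding.

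Signals were linear intensities in arbitrary units that had been scaled on each array to the same trimmed mean, with medians of 63.0 to 76.9 on the embryonic arrays and 91.0 to 108.6 on the adult ones. Klf4, on its brighter probe set, read 774.5, 1015.4 and 428.4 in WT and 1360.3, 804.8 and 1071.9 in Klf4CN at E16.5. At PN56 it read 156.5 and 213.5 in WT and 731.8 and 702.2 in Klf4CN, higher and not lower in the latter. Whether that probe set lies in the deleted part is not stated in the labels, so that each direction below is that of the lenses labelled Klf4CN. The 9 probe sets for hybridisation spikes differed by a mean log2 of -0.16 between Klf4CN and WT at E16.5 and of -0.56 at PN56. The 5' probe set of 18S ribosomal RNA stood at 1869 ± 646 in WT and 21778 ± 945 in Klf4CN at E16.5 (SD, n = 3 each), and at 1699 ± 1656 and 8353 ± 3751 at PN56 (SD, n = 2 each). Lens fibre markers were present on each of the 10 arrays, with a summed signal of 177507 to 238373 at E16.5 and 515469 to 787602 at PN56. The part of these differences in the results on the members was not tested, except where a value is given.

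**Figure D1:**
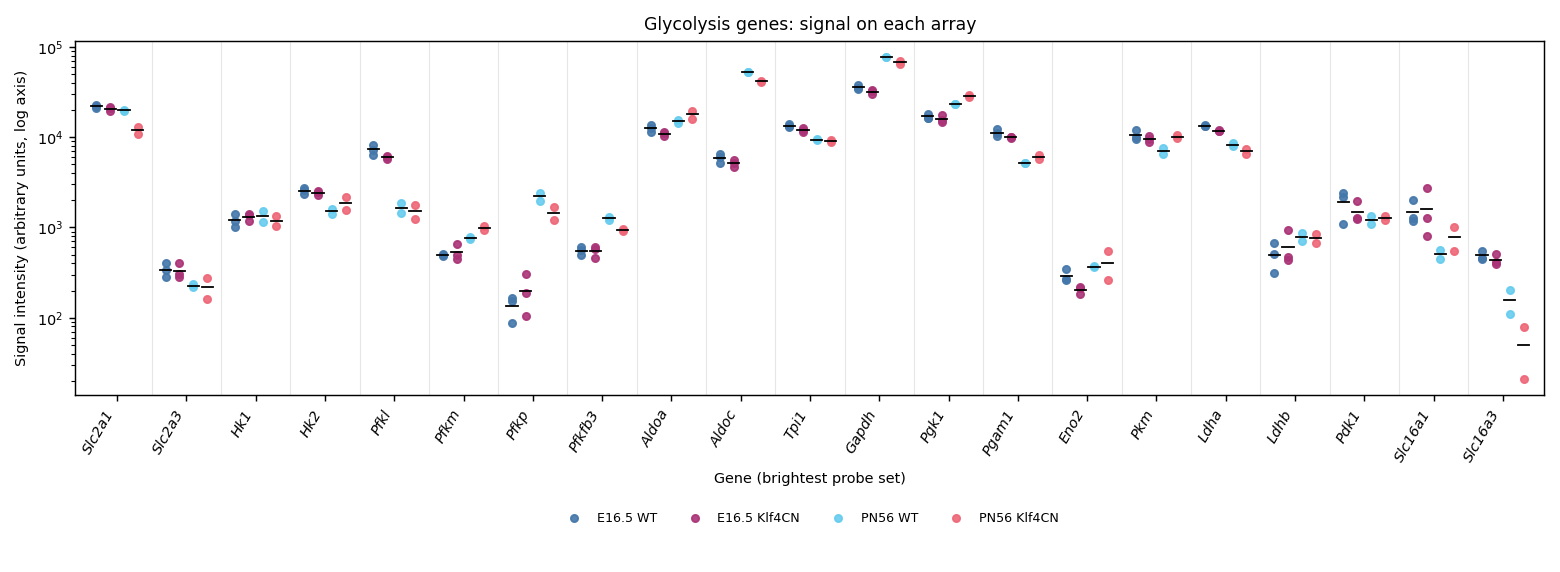
Signal of the 21 measured glycolysis genes on each of the 10 arrays, in arbitrary units on a log axis, with a bar at each group mean. Slc2a1 at PN56 was at 19690.9 and 19796.2 in WT and at 10899.7 and 12949.9 in Klf4CN, and Aldoc lay between 41214 and 52935.9 on the PN56 arrays and between 4714.1 and 6528.1 on the E16.5 arrays.

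**Figure D2:**
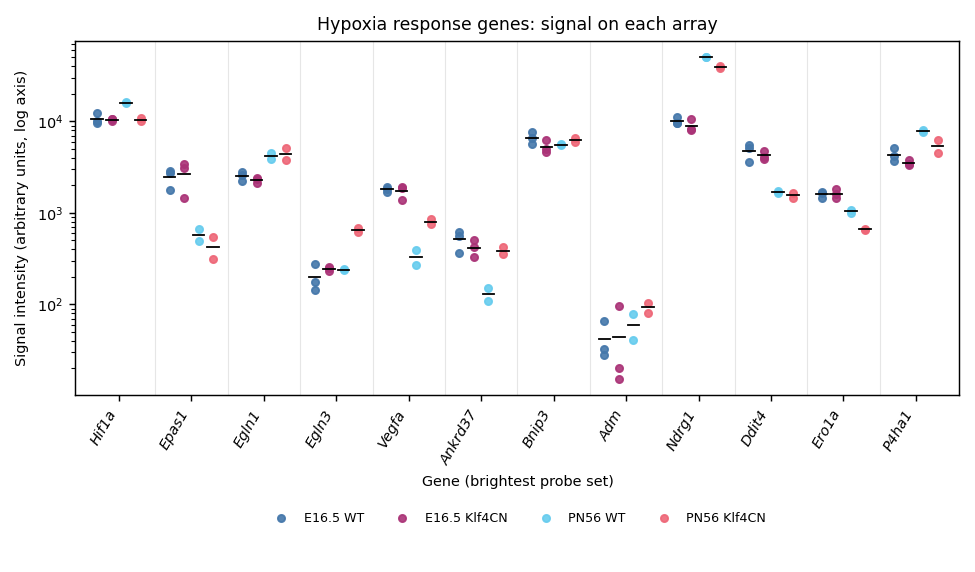
Signal of the 12 hypoxia response genes on each of the 10 arrays, in arbitrary units on a log axis, with a bar at each group mean. Vegfa lay between 1378.1 and 1936.3 on the E16.5 arrays and between 269.9 and 855.3 on the PN56 arrays, with both Klf4CN arrays above both WT arrays at PN56.

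Klf4CN and WT lenses were first compared at E16.5. Of the 33 genes, 0 passed the test (limma, Benjamini-Hochberg adjustment over the 13445 genes, called at an adjusted p under 0.05), in a comparison that called 0.00744% of all genes tested, a single gene. At an unadjusted p under 0.05 there were 2 members among 612 genes, and the count of members called was also 0 under each alternative run. The log2 difference, Klf4CN minus WT, was negative for 26 of the 33 genes and positive for 7. With each array scaled to the hybridisation spikes it was negative for 12 and positive for 21. The median log2 difference of the 33 genes was -0.15, beside -1.28e-05 over all genes and -0.16 for the hybridisation spikes. Groups did not overlap for 7 of the 33 genes, all 7 of them glycolysis genes, beside 11.9% of all genes. Lens fibre markers had lower means in Klf4CN at 10 of 10, with a median log2 difference of -0.20. Higher means in Klf4CN were found for pigment cell markers at 7 of 7 (median 1.84), retinal neuron markers at 9 of 9 (1.65), smooth muscle and mesenchyme markers at 8 of 9 (0.80) and macrophage markers at 8 of 9 (0.36). In each of these lists 0 markers passed the limma test, while at an unadjusted p under 0.05 there were 4, 6, 7, 6 and 1 in the order given. Lens epithelium markers had lower means in Klf4CN at 5 of 8 and higher at 3, with a median log2 difference of -0.31. Of these, 0 passed the limma test and 4 had an unadjusted p under 0.05. The pigment markers summed to 1035.1 to 2488.7 in WT and 2437 to 8256.2 in Klf4CN, and the retinal neuron markers to 948.7 to 8480.8 and 5419.8 to 16141.2, ranges that overlapped. The part of these markers in the members' differences was not tested.

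The 5 members of smallest p at E16.5 had lower means in Klf4CN, and none of them passed the test (limma adjusted p = 0.9997 for each). Bnip3, a mitochondrial protein of mitophagy and cell death, read 7754.2, 6545.4 and 5708.6 in WT and 6203.8, 4997.6 and 4578.1 in Klf4CN, a log2 difference of -0.34 ± 0.13 (SE). Its groups overlapped. Ldha, the lactate dehydrogenase subunit that favours lactate, read 13489.2, 13232.2 and 13453 in WT and 11848.6, 12017.1 and 11656.3 in Klf4CN, a log2 difference of -0.18 ± 0.08 (SE) between groups that stood apart. Gapdh, glyceraldehyde phosphate dehydrogenase, is measured by the array's own Gapdh control probe sets. It read 34468.3, 34947.9 and 37652.9 in WT and 32055.8, 33037.1 and 30443.2 in Klf4CN, a log2 difference of -0.16 ± 0.08 (SE) between groups that stood apart. P4ha1, a subunit of collagen prolyl hydroxylase, read 4210.6, 3728.1 and 5106.3 in WT and 3808.6, 3393.1 and 3360.6 in Klf4CN, a log2 difference of -0.29 ± 0.14 (SE) with overlap. Aldoa, the aldolase of muscle and many other tissues, read 12686.6, 11440.9 and 13594.1 in WT and 11358.4, 10245.6 and 11076.9 in Klf4CN, a log2 difference of -0.20 ± 0.10 (SE) between groups that just stood apart.

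In the adult lens, 9 of the 33 genes differed between Klf4CN and WT. The glucose transporter gene Slc2a1, the lactate exporter gene Slc16a3, Hif1a, Ero1a and P4ha1 were lower in Klf4CN, and Vegfa, Ankrd37, Egln3 and the pyruvate kinase gene Pkm were higher. Of all genes tested, 13.1% passed in this comparison, 6.08% higher and 6.98% lower. The glycolysis genes passed at 3 of 21, a share near that background, and the hypoxia response genes at 6 of 12, 3 in each direction. The median log2 difference of the 33 genes was -0.05, beside -0.06 over all genes. Groups did not overlap for 21 of the 33 genes, beside 50.7% of all genes. Among the 396 genes with a mean signal of 10000 or more, to which 9 members belong, 16.7% passed higher and 16.9% lower. From 3000 to 10000, with 7 members, the shares were 16.2% and 12.1%. From 300 to 3000, with 15 members, they were 6.24% and 8.51%. The split of 4 higher and 5 lower depended on the scaling: it was 4 and 2 with each array centred on its median, 3 and 4 after quantile normalization, and 12 and 0 with each array scaled to the hybridisation spikes, an alternative chosen after seeing the data.

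**Figure D3:**
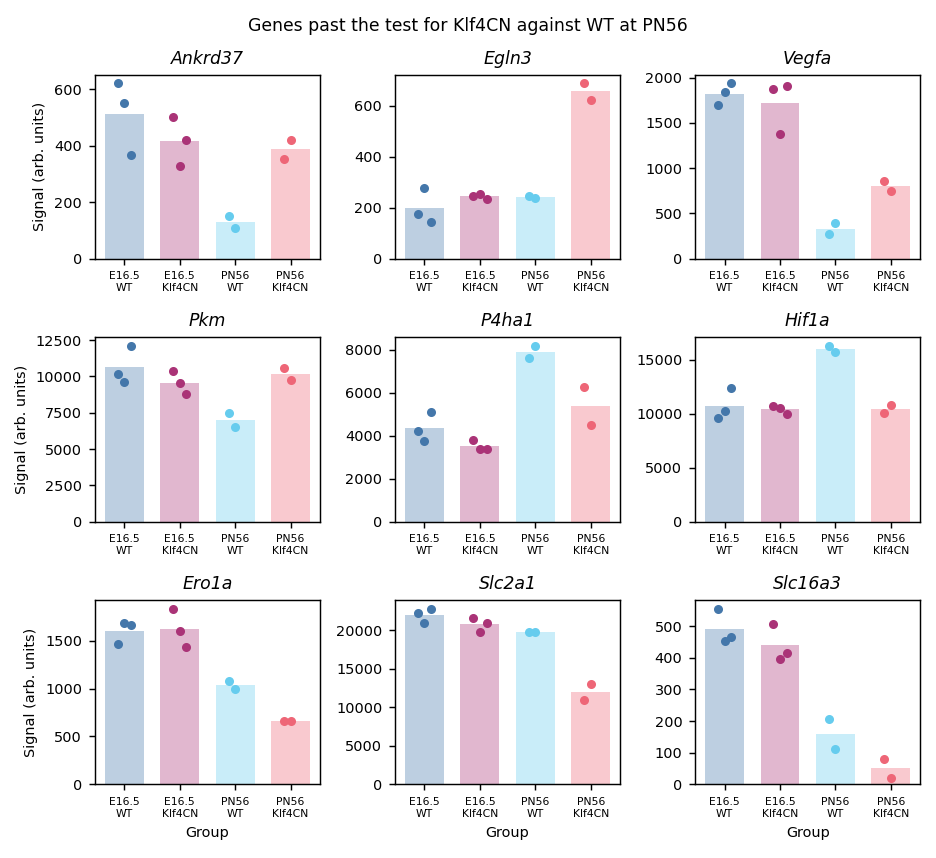
Signal in arbitrary units, on linear axes from 0, of the 9 genes past the test for Klf4CN against WT at PN56; points are arrays (3 per group at E16.5, 2 at PN56) and bars are group means. Ankrd37, Egln3, Vegfa and Pkm stood higher on both PN56 Klf4CN arrays than on both PN56 WT arrays, and the other 5 stood lower, with scaling to the spikes leaving the log2 difference of P4ha1 at -0.01 and that of Slc2a1 at -0.18.

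Glucose uptake is the entry to the pathway. Slc2a1, which encodes GLUT1, read 19690.9 and 19796.2 in WT and 10899.7 and 12949.9 in Klf4CN at PN56. Both Klf4CN arrays were below both WT arrays, and also below the 19731.1 to 22749.6 of the 6 embryonic arrays. The log2 difference at PN56 was -0.73 ± 0.10 (SE, limma adjusted p = 0.0009877), 1.66-fold lower on the scale of signal plus 16. The gene has 2 other probe sets, which gave -0.56 (limma adjusted p = 0.009153 with each probe set tested by itself) and -0.28 (adjusted p = 0.1669). Slc2a1 passed under 22 of 23 alternatives; scaled to the spikes, its log2 difference was -0.18 and it did not pass. Slc2a3, the high-affinity neuronal transporter gene GLUT3, had a log2 difference of -0.11 ± 0.29 (SE) and did not pass.

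Of the 14 glycolytic enzyme and regulator genes measured, Pkm passed the test at PN56. Pkm encodes the pyruvate kinase that makes pyruvate in the last step. It read 7512.1 and 6520.9 in WT and 10585.5 and 9732.3 in Klf4CN at PN56, and 8786.2 to 12094.9 over the 6 embryonic arrays. The PN56 WT arrays were therefore the low ones, and Klf4CN at PN56 lay within the embryonic range. The log2 difference at PN56 was 0.54 ± 0.13 (SE, limma adjusted p = 0.01777). It passed under 17 of 23 alternatives. Without WT replicate 2 it was 0.43 and without Klf4CN replicate 1 it was 0.47, and it passed in neither case.

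The other 13 enzyme and regulator genes did not pass at PN56, and their log2 differences ran from -0.63 for Pfkp to 0.36 for Pfkm, the platelet and muscle forms of phosphofructokinase. Aldoc, the aldolase of brain and retina, read 52935.9 and 52688.9 in WT and 41214 and 41582.4 in Klf4CN at PN56, apart but not past the test (log2 -0.35 ± 0.12, SE, limma adjusted p = 0.06852; 0.21 scaled to the spikes). Pgk1, phosphoglycerate kinase, read 23031.7 and 23381.2 in WT and 28120.3 and 29218.7 in Klf4CN on its brightest probe set, with a log2 difference of 0.30 ± 0.11 (SE, limma adjusted p = 0.07861). A second Pgk1 probe set, nearly as bright, gave 0.72 (limma adjusted p = 0.0008534 with each probe set tested by itself). Aldoa gave 0.24 on its brightest probe set, not past the test, and 0.45 and 0.64 on 2 others that passed (limma adjusted p = 0.01817 and 0.006865), while the remaining 2 gave 0.36 and -0.04 and did not pass. The dimmest Pgk1 probe set gave 0.94 and did not pass (limma adjusted p = 0.05086 with each probe set tested by itself). The brightest and dimmest Pgk1 probe sets and those of Aldoa are of the kind that can bind related transcripts. Their values are therefore uncertain. The Pgk1 probe set that passed, at 0.72, is not of that kind. Gapdh, with a log2 difference of -0.19 ± 0.09 (SE) that turned to 0.37 on scaling to the spikes, did not pass on any of its 3 probe sets.

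Of the 5 genes of lactate and pyruvate handling, Slc16a3 passed at PN56. It encodes MCT4, a lactate exporter and known HIF target. It read 205.3 and 110.8 in WT and 79.8 and 21.1 in Klf4CN at PN56, against 397 to 554.5 over the 6 embryonic arrays. The groups at PN56 stood apart, with a wide spread in each. The log2 difference was -1.49 ± 0.40 (SE, limma adjusted p = 0.02927), and it passed under 15 of 23 alternatives. Without WT replicate 1 it was -1.09, without Klf4CN replicate 2 it was -0.81, and it passed in neither case. Ldha, at -0.25 ± 0.10 (SE, limma adjusted p = 0.1025), did not pass. Nor did Ldhb, the subunit that favours pyruvate (-0.04 ± 0.37, SE), Pdk1, the kinase that holds back pyruvate dehydrogenase (0.07 ± 0.32, SE), or Slc16a1, the lactate transporter MCT1 (0.56 ± 0.46, SE).

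**Figure D4:**
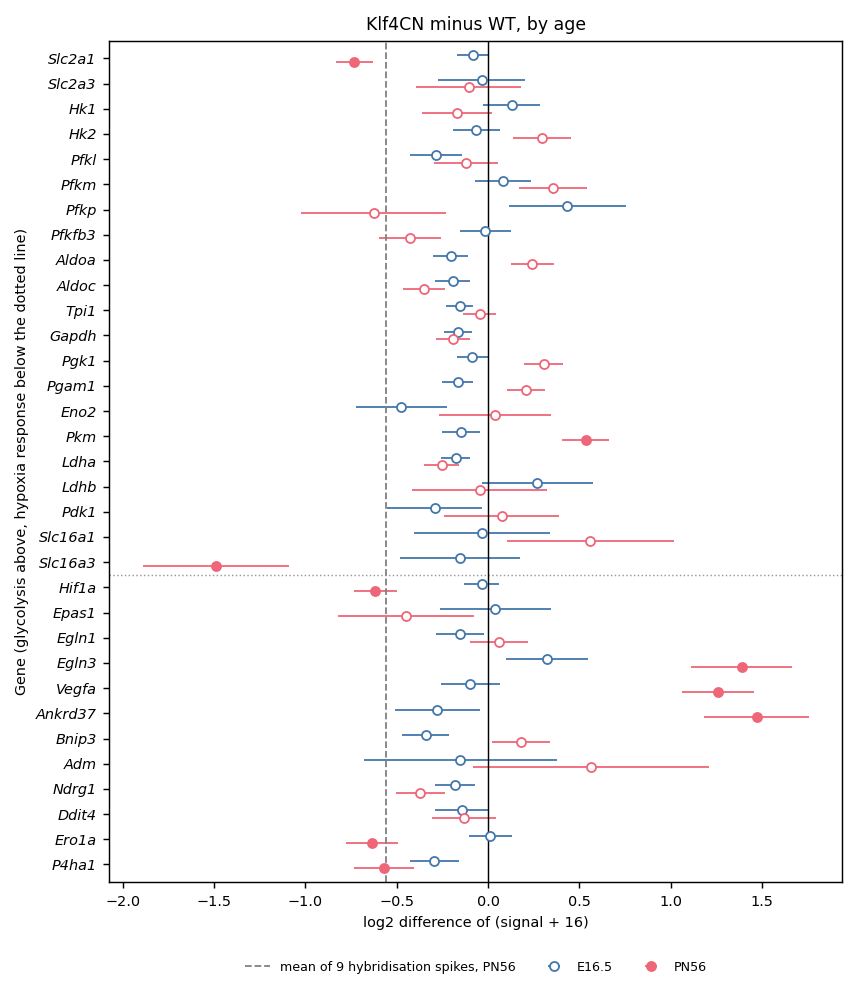
Difference of log2(signal + 16), Klf4CN minus WT, for the 33 genes at E16.5 and PN56; points are limma estimates, bars their SE, filled points passed the test, and the dashed line marks the mean of the hybridisation spikes at PN56 (-0.56). The differences ran from -0.47 to 0.43 at E16.5 with 0 filled points, and from -1.49 to 1.47 at PN56 with 9 filled points; the 5 filled points below 0 lost the test on scaling to the spikes.

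The HIF subunits and oxygen sensors were 4 genes, of which 1 was lower and 1 higher in Klf4CN at PN56. Hif1a read 16279.6 and 15756.6 in WT and 10099.3 and 10774 in Klf4CN at PN56. At E16.5 it read 9573.8, 10217.1 and 12359.2 in WT and 10677, 10507.4 and 10013.3 in Klf4CN. The PN56 WT arrays were the high ones, and Klf4CN at PN56 lay within the embryonic range. The log2 difference at PN56 was -0.62 ± 0.12 (SE, limma adjusted p = 0.005423). Of the other probe sets of Hif1a, 1 gave -0.93 (limma adjusted p = 0.001127 with each probe set tested by itself), 1 gave -0.14 and did not pass, and 1 was too dim. Hif1a passed under 21 of 23 alternatives; the log2 difference was -0.23 over the mean of its probe sets and -0.06 scaled to the spikes, and it passed in neither case.

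Egln3, whose product marks HIF for breakdown and whose own gene is HIF-induced, stood higher in Klf4CN. It read 244.3 and 236.8 in WT and 687.3 and 623.8 in Klf4CN at PN56. At E16.5 it read 175.9, 277.7 and 144 in WT and 247.1, 254.4 and 232.7 in Klf4CN, so that the PN56 Klf4CN arrays were above the other 8. The log2 difference at PN56 was 1.39 ± 0.27 (SE, limma adjusted p = 0.006823), 2.61-fold higher. A second probe set of Egln3 gave -0.16 and did not pass, and over the mean of both the difference was 0.61 and did not pass. Egln1, the main prolyl hydroxylase of HIF, read 4507 and 3931.8 in WT and 5154.5 and 3742.6 in Klf4CN at PN56, with overlap, and 2226.8 to 2807.3 in WT and 2102.2 to 2393.9 in Klf4CN at E16.5. Epas1, the HIF subunit best known from endothelium, read 491 and 661.4 in WT and 539.9 and 314.8 in Klf4CN at PN56, also with overlap, and 1798.2 to 2898.7 and 1466.1 to 3393.2 at E16.5. Egln1 (log2 0.06 ± 0.16, SE) and Epas1 (-0.45 ± 0.37, SE) did not pass at PN56.

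Of the 8 hypoxia-induced genes, 2 were higher and 2 lower in Klf4CN at PN56. Vegfa read 269.9 and 391.2 in WT and 855.3 and 750.5 in Klf4CN. The Klf4CN arrays were above both WT arrays and below the 6 embryonic arrays, which lay between 1378.1 and 1936.3. The log2 difference was 1.26 ± 0.20 (SE, limma adjusted p = 0.001924), 2.40-fold higher, and it passed under 23 of 23 alternatives. A second, dimmer probe set of Vegfa gave 0.07 and did not pass. Ankrd37 read 151.6 and 109.4 in WT and 353.5 and 420.5 in Klf4CN, the latter within the 329 to 621.3 of the embryonic arrays. Its log2 difference was 1.47 ± 0.29 (SE, limma adjusted p = 0.006396), 2.77-fold higher, and it too passed under 23 of 23 alternatives.

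Ero1a, named Ero1l on the list, encodes an oxidase that forms disulphide bonds in the endoplasmic reticulum. It read 1075.7 and 1000 in WT and 658.1 and 665.1 in Klf4CN at PN56, against 1440.2 to 1834.3 at E16.5. The groups at PN56 stood apart, with a log2 difference of -0.64 ± 0.14 (SE, limma adjusted p = 0.01305). It passed under 17 of 23 alternatives. Without WT replicate 1 it was -0.58 and did not pass, and scaled to the spikes it was -0.08 and did not pass. Its 2 other probe sets gave -0.23 and -0.31 and did not pass. P4ha1 read 7618 and 8158.4 in WT and 6247.1 and 4507.8 in Klf4CN at PN56, groups that stood apart with a wide spread in Klf4CN. Its log2 difference was -0.57 ± 0.17 (SE, limma adjusted p = 0.04143), and it passed under only 9 of 23 alternatives. Without each of 7 arrays in turn it did not pass: WT replicate 1 and the 3 Klf4CN replicates at E16.5, at an unchanged -0.57, and at PN56 WT replicate 1 (-0.62), WT replicate 2 (-0.52) and Klf4CN replicate 2 (-0.33).

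The other 4 hypoxia-induced genes did not pass at PN56. Ndrg1, a stress-responsive gene raised by hypoxia and by differentiation, read 50639 and 50816.3 in WT and 39971.1 and 38529.1 in Klf4CN, apart but not past the test (log2 -0.37 ± 0.13, SE, limma adjusted p = 0.08955; 0.19 scaled to the spikes). Bnip3 had a log2 difference of 0.18 ± 0.16 (SE), Ddit4, which holds back mTOR, one of -0.13 ± 0.18 (SE), and Adm, the vasodilator adrenomedullin, one of 0.56 ± 0.65 (SE). Adm was dim, between 15.4 and 103.8 on the 10 arrays. The probe sets read for Ndrg1 and Adm are also of the kind that can bind related transcripts.

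Markers of other cell types differed between the genotypes at PN56 as well. These markers are given without scaling to the hybridisation spikes, which differed by a mean log2 of -0.56 at PN56. Lens fibre markers passed lower in Klf4CN at 9 of 10, with a median log2 of -0.52 and a summed signal of 703994 and 787602 in WT and 515469 and 521453 in Klf4CN. Lens epithelium markers passed lower at 4 of 8, with a sum of 35591.7 and 36140.7 in WT and 21868 and 20395.8 in Klf4CN. Macrophage markers passed higher at 2 of 9, Cd68 and Tyrobp, with a sum of 2021.8 and 1964.5 in WT and 3728.3 and 2087.3 in Klf4CN. Endothelial markers passed higher at 1 and lower at 1 of 10, with a sum of 621.5 and 1006.1 in WT and 835.9 and 951.1 in Klf4CN. Photoreceptor markers passed at 0 of 8, with a sum of 6744.6 and 6142.5 in WT and 15927.4 and 4833.7 in Klf4CN, so that the first Klf4CN array stood apart. Smooth muscle and mesenchyme markers passed higher at 1 and lower at 2 of 9, with a sum of 34262.7 and 29751.7 in WT and 20271.1 and 21871.6 in Klf4CN. Pigment cell markers passed higher at 1 and lower at 0 of 7, while 6 of 7 had a lower mean in Klf4CN, with a sum of 7189.1 and 9023.4 in WT and 5248.1 and 4570.7 in Klf4CN. Their part in the results on the members was not tested.

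Other genes of these pathways were read from companion lists, which, like the members, were drawn up with earlier results of these data known. Their counts stand beside the 6.08% of all genes that passed higher and the 6.98% that passed lower. The companion genes are given without scaling to the hybridisation spikes, which differed by a mean log2 of -0.56 at PN56. Of 17 other glycolysis and gluconeogenesis genes tested, 2 passed higher in Klf4CN at PN56 and 0 lower. Eno3, the muscle enolase, went from a mean of 3733 in WT to 10021 in Klf4CN (log2 1.43 ± 0.13, SE, limma adjusted p = 5.898e-05), and Slc2a4, the insulin-responsive transporter GLUT4, from 39.4 to 281.6 (log2 2.35 ± 0.41, SE, limma adjusted p = 0.00378). The WT mean of Slc2a4 lay below the filter signal of 54.06. Its signal on the PN56 Klf4CN arrays was by itself enough to bring the gene past that filter, so its count as a gain is uncertain. Of 7 genes of the pentose phosphate and polyol pathways, which divert glucose to NADPH, ribose and sorbitol, 2 passed lower: Tkt, transketolase (log2 -0.50 ± 0.09, SE), and Pgd, phosphogluconate dehydrogenase (-0.57 ± 0.16, SE). Of 10 genes of the pyruvate dehydrogenase complex and its regulators, 1 passed lower, the kinase gene Pdk2 (-0.83 ± 0.21, SE).

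Of 12 other HIF pathway regulators, 3 passed higher in Klf4CN at PN56. They were Elob and Eloc, the elongins of the ubiquitin ligase that removes HIF (log2 0.87 ± 0.17 and 0.65 ± 0.15, SE), and Cited2, which competes with HIF for its coactivator (0.45 ± 0.12, SE). Of 21 other hypoxia-induced genes, 4 passed higher and 1 lower. The higher ones were Mif, a cytokine (0.74 ± 0.15, SE), Tfrc, the transferrin receptor (0.60 ± 0.12, SE), Higd1a, a mitochondrial protein (0.92 ± 0.19, SE), and Rora, a nuclear receptor (0.85 ± 0.21, SE), and the lower one was Angptl4, an inhibitor of lipoprotein lipase (-1.05 ± 0.28, SE). Of 8 partners of Ddit4 in mTOR signalling, Rheb, the activator of mTOR, was higher (0.56 ± 0.09, SE) and Mtor lower (-0.71 ± 0.18, SE). At E16.5 these 6 lists held 0 genes past the limma test and 4 at an unadjusted p under 0.05.

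Whether the Klf4CN effect differed between the ages was tested directly, as the effect at PN56 minus that at E16.5, on the same arrays as the comparisons above. Of the 33 genes, 5 passed, where 4.61% of all genes did. The effect was higher at PN56 for Vegfa, Ankrd37 and Pkm (2.61% of all genes passed in this direction) and lower for Slc2a1 and Hif1a (2% of all genes). This split of 3 higher and 2 lower was 3 and 0 with each array centred on its median and 7 and 0 with each array scaled to the hybridisation spikes. Vegfa had log2 differences of -0.10 at E16.5 and 1.26 at PN56, a change of 1.36 ± 0.25 (SE, limma adjusted p = 0.01475), and passed under 20 of 22 alternatives. Ankrd37 had -0.28 and 1.47, a change of 1.75 ± 0.37 (SE, limma adjusted p = 0.02234), and passed under 15 of 22. Slc2a1 had -0.08 and -0.73, a change of -0.65 ± 0.13 (SE, limma adjusted p = 0.01955), and passed under 16 of 22. Pkm had -0.15 and 0.54, a change of 0.68 ± 0.17 (SE, limma adjusted p = 0.03781), and passed under 8 of 22. Hif1a had -0.04 and -0.62, a change of -0.58 ± 0.15 (SE, limma adjusted p = 0.04905), and passed under 4 of 22.

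The count of 5 rested on single arrays: leaving out each of the 10 in turn gave 1 to 4 members. It was 1 without E16.5 Klf4CN replicate 3. It was 2 without E16.5 WT replicate 1, E16.5 Klf4CN replicate 1, PN56 WT replicate 2 or PN56 Klf4CN replicate 2, and 3 without E16.5 WT replicate 2, E16.5 Klf4CN replicate 2 or PN56 WT replicate 1. Vegfa passed without each array. Egln3, at 1.06 ± 0.35 (SE, limma adjusted p = 0.114), and Ero1a, at -0.65 ± 0.18 (SE, limma adjusted p = 0.06856), passed at PN56 and not in the difference between ages. The same held for Slc16a3, at -1.34 ± 0.52 (SE, limma adjusted p = 0.1645), and for P4ha1, at -0.28.

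The ages were then compared within each genotype. In WT, 23 of the 33 genes passed between PN56 and E16.5, 10 higher and 13 lower at PN56, where 56.7% of all genes did (25.8% higher, 30.9% lower). In Klf4CN, 23 passed, 12 higher and 11 lower, where 53.1% of all genes did (22.3% higher, 30.8% lower). The ages did not overlap for 29 of the 33 genes in WT and 24 in Klf4CN, beside 71.1% and 70.5% of all genes. Age cannot be told apart from preparation, since the poly-A spike dap was at 6098 ± 1077 in WT and 5970 ± 435 in Klf4CN at E16.5 (SD, n = 3 each) and at 7.6 ± 7.07 and 50.05 ± 12.8 at PN56 (SD, n = 2 each). Scaling moved the split: in WT it was 5 higher and 17 lower with each array centred on its median, and 3 and 20 with each array scaled to the hybridisation spikes, and in Klf4CN 9 and 15, and 6 and 16. The median of all genes moved from -0.04 to -0.55 and -0.92 in WT with these scalings, and from -0.10 to -0.44 and -0.59 in Klf4CN.

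Members of an enzyme family moved in opposite directions with age. Of the phosphofructokinases, which set the pace of glycolysis, Pfkp read 87, 151.7 and 166.6 in WT at E16.5 and 2426.8 and 1985.9 at PN56, and 103.9, 186.8 and 304.2 and then 1664.2 and 1205.9 in Klf4CN. Pfkl, the liver form, read 7241.8, 6419.2 and 8241.2 in WT at E16.5 and 1842.1 and 1435 at PN56, and 5735.7 to 6140 and then 1790.9 and 1245.7 in Klf4CN. Their ages did not overlap in either genotype. The log2 change was 3.91 ± 0.36 in WT and 2.85 ± 0.36 in Klf4CN for Pfkp, and -2.15 ± 0.16 and -1.99 ± 0.16 for Pfkl (SE), both past the test in both genotypes under each alternative run. Pfkm rose less, by 0.60 ± 0.17 in WT (SE), a change that turned to -0.28 on scaling to the spikes, and by 0.88 ± 0.17 in Klf4CN (SE). Pfkfb3, which makes the activator of phosphofructokinase, changed by 1.18 ± 0.16 in WT and 0.76 ± 0.16 in Klf4CN (SE). Scaled to the spikes, the WT change was 0.29 and did not pass. The Klf4CN change did not pass when scaled to the spikes, centred on the median or averaged over its probe sets. A dimmer probe set of Pfkfb3 gave 1.59 in WT, past the test with each probe set tested by itself, and -0.26 in Klf4CN, not past it.

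Among the aldolases, Aldoc rose from 5974.6, 5185.6 and 6528.1 to 52935.9 and 52688.9 in WT, 8.98-fold (log2 3.17 ± 0.11, SE, limma adjusted p = 8.225e-10), and from 4714.1 to 5551.7 at E16.5 to 41214 and 41582.4 at PN56 in Klf4CN, 8.05-fold. Aldoa changed by 0.26 ± 0.11 in WT, not past the test, and by 0.71 ± 0.11 in Klf4CN (SE), which passed. Its 4 other probe sets gave -0.28 (past the test), -0.28, -0.12 and 0.61 (past the test) in WT, so that the direction in WT depends on the probe set. In WT the later enzymes Tpi1 (-0.51 ± 0.08, SE), Pgam1 (-1.10 ± 0.10, SE) and Pkm (-0.59 ± 0.12, SE) were lower at PN56, as were Hk2 (-0.76 ± 0.15, SE), a hexokinase, and Ldha (-0.69 ± 0.09, SE). Gapdh (1.12 ± 0.08, SE) was higher, a change that quantile normalization turned to -0.02. Pgk1 (0.45 ± 0.10, SE) was higher as well, and was at -0.06, -0.19 and -0.43 when centred on the median, averaged over its probe sets and scaled to the spikes. In Klf4CN, Tpi1 (-0.40 ± 0.08, SE), Pgam1 (-0.72 ± 0.10, SE) and Ldha (-0.77 ± 0.09, SE) were lower and Gapdh (1.09 ± 0.08, SE) and Pgk1 (0.85 ± 0.10, SE) higher, with Gapdh at 0.04 after quantile normalization. Pkm had a change of 0.09 ± 0.12 (SE) in Klf4CN and did not pass. Photoreceptor markers rose with age at 8 of 8 in WT and 7 of 8 in Klf4CN, from sums of 224.4 to 576.9 at E16.5 to 4833.7 to 15927.4 at PN56. Lens fibre markers passed higher with age at 10 of 10 in both genotypes, with a median log2 of 2.02 in WT and 1.48 in Klf4CN. The part of either marker list in the rise of Aldoc and Pfkp was not tested.

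The transporters differed from each other in their course with age. Slc2a1 changed by -0.15 ± 0.09 in WT, not past the test, and by -0.80 ± 0.09 in Klf4CN (SE), which passed. Its 2 other probe sets were lower at PN56 in both genotypes, at -0.69 and -1.20 and at -1.55 and -1.73, each past the test, so that the WT course depends on the probe set. Slc16a3 was lower at PN56 in both genotypes, by -1.59 ± 0.36 and -2.93 ± 0.36 (SE). Slc16a1 was lower in WT, at -1.49 ± 0.42 (SE), and did not pass without PN56 WT replicate 1, at -1.32; in Klf4CN it was at -0.89 ± 0.42 (SE), not past the test. Hk2 in Klf4CN, at -0.40 ± 0.15 (SE), was at -0.15 without PN56 Klf4CN replicate 2, -0.38 without E16.5 Klf4CN replicate 1 and -0.37 without E16.5 Klf4CN replicate 3, and passed in none of these cases. Eno2, the neuronal enolase, passed higher in Klf4CN at 0.85 ± 0.28 (SE), but not without PN56 Klf4CN replicate 1, at 0.32, or E16.5 Klf4CN replicate 3, at 0.77. Slc2a3, Hk1, Ldhb and Pdk1 passed in neither genotype, with log2 changes from -0.61 for Slc2a3 in Klf4CN to 0.69 for Ldhb in WT. Other probe sets of 3 of these genes did pass (limma, each probe set tested by itself). For Hk1, 1 gave 0.92 in WT and 1.39 in Klf4CN, for Ldhb, 2 gave 0.95 and 1.22 in WT, and for Pdk1, 1 gave -0.93 in WT and -0.40 in Klf4CN.

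**Figure D5:**
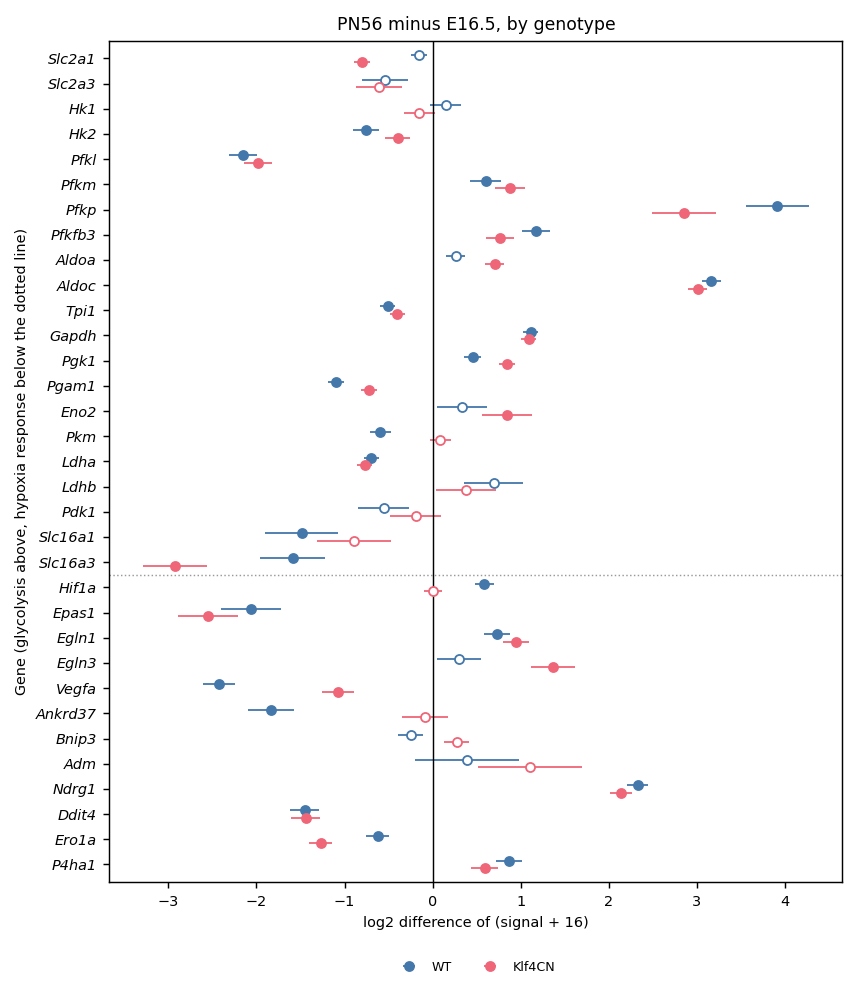
Difference of log2(signal + 16), PN56 minus E16.5, for the 33 genes in WT and Klf4CN; points are limma estimates, bars their SE, and filled points passed the test. Pfkp, Aldoc and Ndrg1 lay between 2.14 and 3.91 in both genotypes and Pfkl and Epas1 between -2.55 and -1.99, while the rises of Pfkm, Pgk1, Hif1a, Egln1 and P4ha1 in WT turned negative on scaling to the spikes.

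In the hypoxia response set, Ndrg1 rose from 11135.1, 9562.7 and 9657.3 to 50639 and 50816.3 in WT and from 10671.1, 8035.4 and 8194.3 to 39971.1 and 38529.1 in Klf4CN. The log2 change was 2.33 ± 0.12 and 2.14 ± 0.12 (SE), past the test under each alternative run. Lens fibre and photoreceptor markers rose with age as well, and their part in the rise of Ndrg1 was not tested. Epas1 fell, with changes of -2.06 ± 0.34 in WT and -2.55 ± 0.34 in Klf4CN (SE), and Ddit4 fell in both, at -1.45 ± 0.16 and -1.44 ± 0.16 (SE). Vegfa fell from 1691.7, 1839.6 and 1936.3 to 269.9 and 391.2 in WT, a change of -2.43 ± 0.18 (SE), and from 1872.3, 1378.1 and 1906 to 855.3 and 750.5 in Klf4CN, a change of -1.07 ± 0.18 (SE). The second probe set of Vegfa gave 0.16 and 0.41, neither past the test. Ankrd37 fell in WT (-1.84 ± 0.26, SE), and in Klf4CN its change was -0.09 ± 0.26 (SE) and did not pass. Endothelial markers fell with age at 10 of 10 in both genotypes, from sums of 6657 to 10332.6 at E16.5 to 621.5 to 1006.1 at PN56, and their part in the falls of Epas1 and Vegfa was not tested.

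Among the other hypoxia response genes, Hif1a was higher at PN56 in WT (0.59 ± 0.11, SE), a change that turned to -0.30 on scaling to the spikes, and in Klf4CN its change was 0.00 ± 0.11 (SE), not past the test. Another, dimmer probe set of Hif1a gave 4.59 in WT and 4.78 in Klf4CN, both past the test with each probe set tested by itself, so that the size of the change with age depends on the probe set. Egln1 was higher in both, at 0.73 ± 0.15 and 0.94 ± 0.15 (SE), with the WT value turning to -0.16 on scaling to the spikes. Egln3 was higher in Klf4CN (1.36 ± 0.25, SE) and did not pass in WT (0.30 ± 0.25, SE). Ero1a was lower in both on its brightest probe set, at -0.62 ± 0.13 and -1.27 ± 0.13 (SE), but the mean of its probe sets gave 0.41 in WT and -0.03 in Klf4CN. Its other probe sets gave 1.09 and 0.77 in WT, both past the test with each probe set tested by itself. In Klf4CN they gave 0.94, past the test, and 0.26, not past it, so that the direction with age depends on the probe set. P4ha1 was higher in both, at 0.87 ± 0.15 and 0.59 ± 0.15 (SE); the WT value turned to -0.02 on scaling to the spikes, and the Klf4CN value was 0.36 and did not pass without PN56 Klf4CN replicate 1. A second probe set of P4ha1 gave 3.46 and 3.00, both past the test. Bnip3 and Adm passed in neither genotype, with log2 changes of -0.25 ± 0.14 and 0.27 ± 0.14 for Bnip3 and 0.39 ± 0.59 and 1.11 ± 0.59 for Adm (SE).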

How the data were processed

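RNA of whole lenses was hybridised to Affymetrix whole-genome mouse arrays, 1 array per pooled preparation. The deposited values were linear signal intensities, made by the authors with GCOS 1.4 per the submitters' processing notes; no other step is given in the sources used. The 2% trimmed mean of each array's signals came to 500. Of 45101 probe sets, 34958 carried a single symbol, 932 several and 9211 none. RefSeq genes of GRCm38.p6 were matched by gene identifier for 34754 of the single-symbol probe sets.

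The brightest probe set stood for a gene, tested when its mean signal reached 54.06, the array-wide 40th percentile. All 10 arrays entered one fit of log2(signal + 16) with 4 group means (limma 3.58.1 in R 4.3.3, eBayes with an intensity trend, two-sided); fold changes understate changes of dim genes. The script was tested on simulated data.

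Members, companion lists and markers were chosen with earlier results of these data known. All members are named; array values are given for called members, HIF factors and sensors, and the 5 of smallest p where fewer than 5 were called; up to 4 genes per companion list, with Angptl4 added after its value was seen. Alternatives were 21 planned and 2 chosen after seeing the data (spike scaling, each probe set by itself). Another background correction could not be run on processed values.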

Additional observations from a re-analysis of the deposited data

Results flagged for a closer look

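For 5 members the Klf4CN effect differed between the ages by a test of the difference itself (limma, adjusted over all genes). As log2 differences of the effect at PN56 minus that at E16.5, Ankrd37 stood at 1.75, Vegfa at 1.36, Pkm at 0.68, Hif1a at -0.58 and Slc2a1 at -0.65. Vegfa kept its call on leaving out each array. Ankrd37 lost it on leaving out any of 5 arrays, with values of 1.54 to 1.76 in those cases. Slc2a1 lost it without E16.5 Klf4CN replicate 1 (-0.62) or replicate 3 (-0.64). Pkm and Hif1a each lost it on leaving out any of 9 arrays, with the change in Pkm at 0.58 to 0.78 and that in Hif1a at -0.63 to -0.51.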

How the results depend on the processing

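The count of members called at PN56 between the genotypes, 9, was 4 with array weights and 5 in a fit of the compared groups alone, and 6 to 9 on leaving out each array in turn. The genes called overall there, 1756, fell to 635 and 773 under those 2 settings, to 1179 without an intensity trend and to 1038 with probe sets averaged per gene, and came to 4263 scaled to the hybridisation spikes. The count for the difference between ages, 5, was 3 with each array centred on its median, 3 with no filter, 2 with probe sets averaged per gene, 0 without an intensity trend (200 genes overall), 2 with array weights and 1 to 4 on leaving out each array. The counts for age, 23 in each genotype, stayed within 1.5 times under each alternative.

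Among members called in a comparison, those whose sign turned under an alternative were called in PN56 against E16.5 in WT. Scaled to the spikes, Pfkm was at -0.28, Pgk1 at -0.43, Hif1a at -0.30, Egln1 at -0.16 and P4ha1 at -0.017. Centred on the median, Pgk1 was at -0.061; quantile normalization put Gapdh at -0.020; the mean of probe sets put Pgk1 at -0.19 and Ero1a at 0.41. The cause was not tested. Counting members not called as well, scaling to the spikes turned the sign of 14 of 33 at E16.5 and 12 of 33 at PN56 between the genotypes, 8 of 33 in the difference between ages, and 11 and 4 of 33 with age in WT and Klf4CN.

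Whether replicate numbers pair the arrays was not settled. At E16.5, same-numbered arrays correlated in their deviations at r = 0.271, 0.24 and 0.0524. The other pairs at that age ran from -0.276 to 0.0621, the last for WT replicate 3 with Klf4CN replicate 2. At PN56, with 2 arrays a group, the deviations in a group mirror each other, so r = 0.0409 there cannot show pairing. With the replicate number as a block, 0 members passed at E16.5, 10 at PN56 (4 higher, 6 lower), 4 in the difference between ages, and 26 and 23 with age in WT and Klf4CN. Precision is limited by 2 arrays a group at PN56 and, for dim members such as Adm and Slc16a3, by signal near background.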
